A study of Mus musculus with 4 samples.

Results

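The 45 genes described here encode Toll-like receptors with their co-receptors, the adaptors and kinases that act below them, and the subunits, inhibitors and regulators of the transcription factor NF-κB. They were taken by gene name from the gene count table, where all 45 were found among 41342 named genes, and all 45 passed a filter on low genes (an average over the libraries of 50 counts or more), as did 11286 genes in all. Cd14 and Tlr3 passed it only through their resting libraries. RNA was sequenced from CD43-depleted splenocytes, a preparation rich in B cells, of mice of the 129 strain in which the palindromic 3' regulatory region (3'RR) of the immunoglobulin heavy chain locus had been altered in ES cells. ΔleftPAL mice lack the left arm of the palindrome with the enhancers hs3a and hs1,2 and the IRIS sequence between them. ΔIRIS mice lack the IRIS sequence and carry hs3a in inverted orientation, so that every enhancer is kept but the palindrome is lost. Each genotype gave 1 library of freshly isolated, resting cells and 1 of cells kept 48 h with LPS at 5 μg per ml and purified again on a gradient, each from a pool of 4 animals according to the labels. The text of the study gives other numbers of mice and pools, so how many animals a library holds is uncertain. It describes the mice of its RNA sequencing as males of 8 to 12 weeks. wt libraries were not analysed here, so no value stands relative to an unaltered 3'RR, and no library was made of cells cultured without LPS, so LPS and time in culture cannot be told apart.

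Toll-like receptors recognise microbial molecules. TLR4, with MD-2 (Ly96) and CD14, binds LPS, and in B cells the related pair RP105 (Cd180) and MD-1 (Ly86) also takes part in the response to it. Signals pass through the adaptors MyD88, TIRAP, TRIF (Ticam1) and TRAM (Ticam2), the IRAK kinases and TRAF6 to the kinase TAK1 (Map3k7) and the IκB kinase complex. Active IκB kinases release NF-κB dimers from IκB proteins, and several of the genes then switched on, Nfkbia and Tnfaip3 (A20) among them, encode proteins that end the response.

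The libraries held between 23615496 and 29776108 counts in named genes. Values are given as CPM, a gene's counts relative to the library size after TMM scaling (trimmed mean of M values, edgeR), and a floor of 3 counts lay between 0.0965 and 0.129 CPM. With 1 library a group no difference has a replicate check, and p-values come from an edgeR quasi-likelihood fit of genotype and condition to all 4 libraries. In it a gene's own error comes only from how far the LPS response of one genotype departs from that of the other. The fit then draws this error toward that of all genes tested, with a prior of 3.41 beside 1 residual degree of freedom. Ratios of 2 libraries are given with exact 95% Clopper-Pearson intervals, which cover counting error only, as PCR copies are not independent molecules. The resting libraries held RNA of other cells as well. The summed CPM of 5 erythroid markers was 43216 and 30000 in resting ΔleftPAL and ΔIRIS cells against 56.0 and 117 on LPS. That of the 17 myeloid markers in the table was 947 and 1265 at rest against 16.6 and 22.3 on LPS, with S100a8, S100a9, C1qa and C1qb at 0 counts in ΔleftPAL and Csf3r, S100a8, S100a9, C1qa, C1qc and Cd163 at 0 in ΔIRIS. That of 8 T cell markers was 173 and 166 at rest against 43.4 and 41.5 on LPS. Most of it was Cd2, at 119.7 and 120.2 CPM at rest and 25.9 and 25.2 on LPS. Cd3d, Cd3e and Cd3g were at 2.02, 0.729 and 2.15 CPM in resting ΔleftPAL cells. They were at 0.650, 0.181 and 0.397 in resting ΔIRIS cells and at 0 on LPS in both genotypes. The summed CPM of 8 B cell markers was 4538 and 3918 at rest against 2422 and 2503 on LPS, and 7 of the 8 were called lower. Plasma cell markers went the other way, 4 of 5 being called higher and their sum going from 357 and 308 CPM at rest to 1307 and 836 on LPS. The 4 NK cell markers summed to 5.36 and 1.77 CPM at rest and 0.143 and 0.0643 on LPS, too few counts to be tested. In bulk RNA, fewer cells of a type cannot be told apart from less RNA in each cell.

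On LPS, more of the 45 genes were lower than higher. The edgeR test called 28 of the 45 lower and 7 higher (adjusted p under 0.05), beside 31.4% of all genes tested called lower and 31.3% called higher. The 7 were Ticam1, Ticam2, Tirap, Traf1, Map3k7, Nfkb1 and Nfkbiz. Both LPS libraries lay below both resting libraries in CPM for 31 of the 45, beside 42.3% of all genes tested, and above both for 10, beside 41.6%. The median difference in log2 CPM, LPS minus resting, was -0.59 in ΔleftPAL and -0.52 in ΔIRIS over the 45, against 0.00 and -0.03 over all genes tested. At least 2-fold lower in both genotypes were 10 of the 45, namely Tlr3, Tlr6, Tlr9, Cd180, Cd14, Traf5, Rel, Nfkbid, Ikbkb and Map3k14, beside 15.0% of all genes tested. At least 2-fold higher in both were 2, Ticam2 and Traf1, beside 14.5%. Cd14 and Tlr3 are among the 10, and with a minimum mean of 200 counts, which neither passed, 7 of 40 were at least 2-fold lower beside 13.6% of all genes. Of the calls, 20 of the 28 lower and 5 of the 7 higher were made in all 11 fits tried. Of the others, Tlr3, Tlr6, Cd14 and Ticam2 were removed by a filter at a mean of 200 counts, Nfkb1 was tested under that filter and not called (edgeR adjusted p 0.0549), and Tlr7, Irak1, Traf2, Traf6 and Tnip2 were lost under other scalings, tables, filters or tests.

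**Figure D1:**
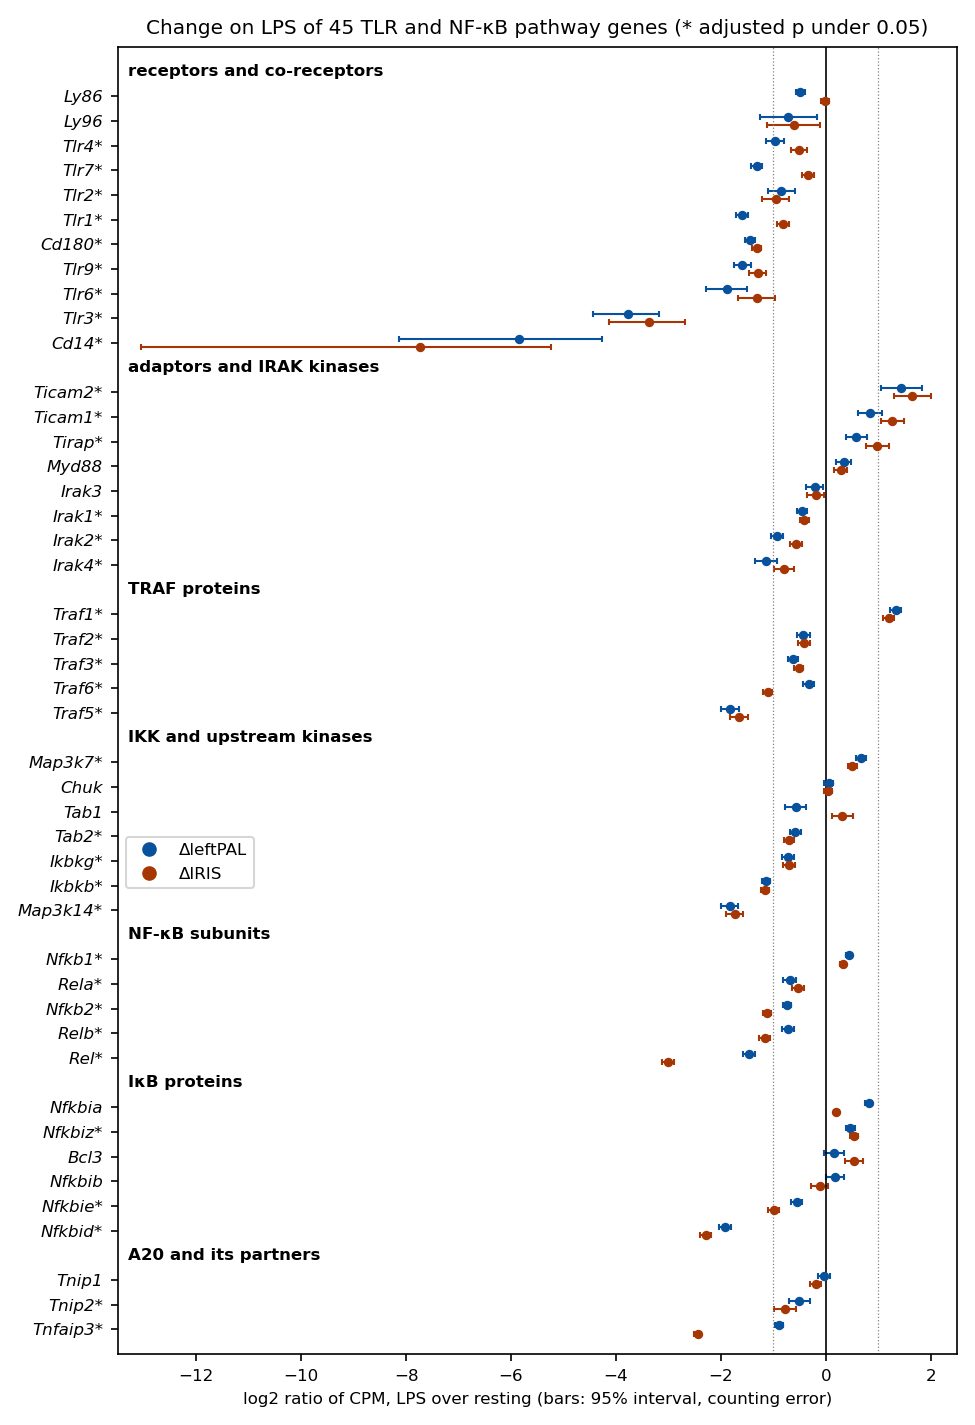
The log2 ratio of CPM, LPS over resting, for each of the 45 genes by role in ΔleftPAL (blue) and ΔIRIS (red), with bars for the exact 95% counting interval and a star for an edgeR adjusted p under 0.05. All 11 receptors and co-receptors lie at or below 0, from Ly86 at -0.49 and -0.02 to Cd14 at -5.85 and -7.74, while Ticam2 and Traf1 lie above 1 in both genotypes.

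Among receptors and co-receptors, 9 of the 11 fell on LPS, beside 31.4% of all genes tested, none rose, beside 31.3%, and Ly86 and Ly96 were not called. The direction of Tlr3 and Cd14, 2 of the 9, was fixed by the filter, which they passed only through their resting libraries. Per 1000 exon bases the order in resting ΔleftPAL cells ran from Ly86 at 106 CPM through Tlr1 at 38.1, Cd180 at 26.8, Tlr7 at 21.1 and Tlr9 at 13.9 to Tlr4 at 5.72, Tlr2 at 4.46, Cd14 at 3.93, Tlr6 at 3.86, Ly96 at 2.98 and Tlr3 at 2.67. Ly86 was the highest of the 45 genes in that library on this scale and the second highest in the other 3. In resting ΔIRIS cells Tlr1 and Cd180 lay side by side at 25.7, and Tlr7 followed at 11.8. The genes for the LPS receptor itself were thus among the lower ones, with Tlr4 at rank 36 and Ly96 at rank 42 of the 45 in resting ΔleftPAL cells.

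**Figure D2:**
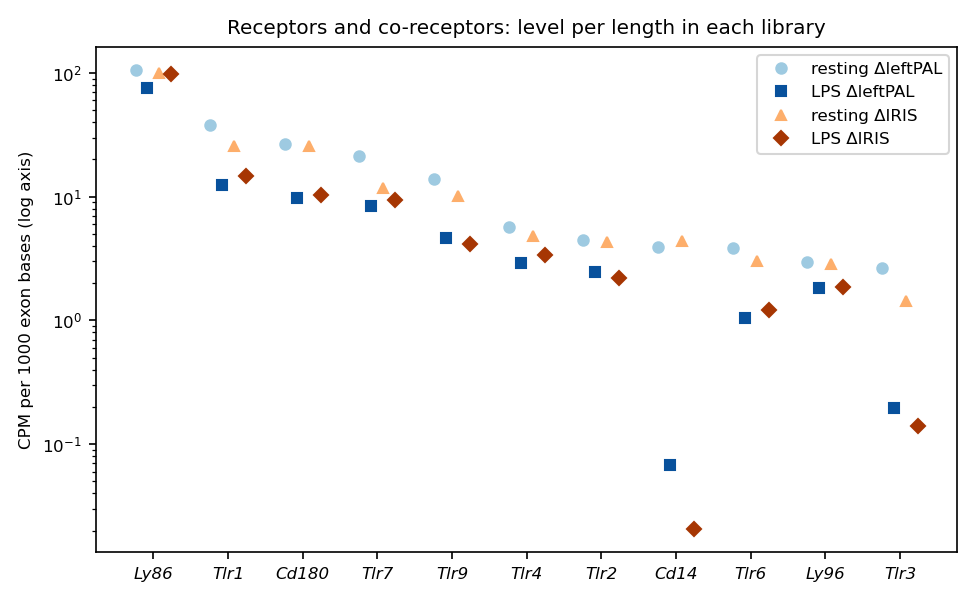
CPM per 1000 exon bases, on a log axis, of the 11 receptors and co-receptors in each of the 4 libraries, ordered by resting ΔleftPAL. For all 11 both LPS libraries lie below both resting libraries, as for 42.3% of all genes tested, with the widest gap for Cd14 and hardly any for Ly86 in ΔIRIS cells.

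Tlr4, the LPS receptor, was at 31.8 CPM in resting and 16.3 in LPS ΔleftPAL cells, and at 26.6 and 18.7 in ΔIRIS cells. Both LPS libraries were below both resting ones, with log2 ratios of -0.96 (interval -1.13 to -0.79) and -0.51 (-0.67 to -0.35) and an edgeR adjusted p of 0.0184. Ly96, which TLR4 needs to bind LPS, had 71 and 52 counts in resting and LPS ΔleftPAL cells and 80 and 59 in ΔIRIS cells, ratios of -0.71 and -0.61 whose edgeR adjusted p was 0.0907. Cd14, which hands LPS to TLR4 and MD-2, had 144 and 190 counts at rest and 3 and 1 on LPS. Its log2 ratios were -5.85 (interval -8.14 to -4.27) and -7.74 (-13.05 to -5.24). On LPS it was at or under the floor of 3 counts in both genotypes.

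Cd14 is a classical marker of myeloid cells, whose markers were lower on LPS by the sums given above. Of the 15 of them that were tested 14 were called lower, but 13 of these, like Cd14, passed the filter only through their resting libraries, which fixed their direction. Tlr3, the receptor for double-stranded RNA, was at 11.8 and 0.858 CPM in resting and LPS ΔleftPAL cells and at 6.32 and 0.611 in ΔIRIS cells, 13.7-fold and 10.3-fold lower on LPS, and its direction was fixed by the filter in the same way. Tlr2, which pairs with TLR1 or TLR6 to sense lipopeptides, was at 13.4 and 7.47 CPM in ΔleftPAL and 13.0 and 6.69 in ΔIRIS cells (edgeR adjusted p 0.0119). The part of the myeloid markers in these falls was not tested.

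The receptors of endosomes that respond to nucleic acids, and RP105, fell as well. Cd180 was at 121 and 44.3 CPM in resting and LPS ΔleftPAL cells and at 116 and 46.5 in ΔIRIS cells. The ratios of the genotypes lay close together, at -1.45 (interval -1.55 to -1.35) and -1.32 (-1.41 to -1.23), with an edgeR adjusted p of 0.00162. Ly86, whose product MD-1 is bound by RP105, was not called, at 105 and 75.1 CPM in ΔleftPAL and 99.2 and 98.0 in ΔIRIS cells (edgeR adjusted p 0.234). Tlr9, the receptor for unmethylated CpG DNA, was at 48.3 and 16.1 CPM in ΔleftPAL and 35.0 and 14.3 in ΔIRIS cells, 3.01-fold and 2.45-fold lower on LPS (edgeR adjusted p 0.00209). Tlr7, the receptor for single-stranded RNA, was at 86.2 and 34.5 CPM in ΔleftPAL but 48.3 and 38.3 in ΔIRIS cells. Its ratios were -1.32 and -0.33, a difference between genotypes that was not tested, and its edgeR adjusted p of 0.0491 was the largest of the 35 called. Tlr1 was at 101 and 33.2 CPM in ΔleftPAL and at 68.2 and 38.7 in ΔIRIS cells (edgeR adjusted p 0.010). Tlr6 was at 10.0 and 2.72 CPM in ΔleftPAL and at 7.88 and 3.15 in ΔIRIS cells (edgeR adjusted p 0.00723). Tlr1 and Tlr6 are neighbours of similar sequence on chromosome 5, and the Tlr6 counts were 1.23 to 1.5 times the kallisto estimates, so its level is uncertain.

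Of the 8 adaptors and IRAK kinases, 3 rose and 3 fell, shares near the 31.3% and 31.4% over all genes tested. Ticam1, Ticam2 and Tirap rose, and Irak1, Irak2 and Irak4 fell. Ticam2, which links TLR4 to TRIF, had 73 and 236 counts in resting and LPS ΔleftPAL cells and 85 and 299 in ΔIRIS cells. The LPS libraries were 2.69-fold and 3.13-fold higher (edgeR adjusted p 0.00541), although on the kallisto TPM scale the gene did not reach 2-fold in both. Its counts were between 0.46 and 0.63 of the kallisto estimates, and it overlaps Tmed7 on the same strand. Ticam1, the adaptor TRIF itself, was at 10.3 and 18.4 CPM in ΔleftPAL and 8.56 and 20.6 in ΔIRIS cells (edgeR adjusted p 0.00852). Tirap, which brings MyD88 to TLR2 and TLR4, was at 12.7 and 19.1 CPM and at 9.43 and 18.7 (edgeR adjusted p 0.0179). Its counts were between 0.67 and 0.90 of the kallisto estimates, and in TPM its log2 ratios were 0.10 in ΔleftPAL and 0.88 in ΔIRIS cells. Myd88 was at 29.7 and 37.6 CPM in ΔleftPAL and 32.7 and 39.7 in ΔIRIS cells, higher on LPS by 0.34 and 0.28 on the log2 scale with an edgeR adjusted p of 0.0791. It was called higher with total counts, the kallisto estimates, a filter at 10 counts or none. Both LPS libraries lay above both resting libraries for these 4, as for 41.6% of all genes tested.

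Irak4, the kinase nearest to MyD88, was at 21.6 and 9.84 CPM in resting and LPS ΔleftPAL cells and at 21.2 and 12.2 in ΔIRIS cells (edgeR adjusted p 0.00806), with counts between 0.72 and 0.80 of the kallisto estimates. Irak2 was at 68.1 and 35.9 CPM and at 57.9 and 39.0 (edgeR adjusted p 0.0107), and Irak1 at 85.2 and 62.1 and at 80.5 and 60.7 (edgeR adjusted p 0.0289). These 3 kinases were lower in both LPS libraries than in either resting one, as were 42.3% of all genes tested. Irak3, the inhibitory member of the family, was at 26.0 and 22.5 CPM and at 22.1 and 19.3, and was not called (edgeR adjusted p 0.220).

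The TRAF proteins, which join receptors to kinases, numbered 5, of which Traf1 rose and 4 fell, beside 31.3% and 31.4% of all genes. Traf1, itself a known NF-κB target, was at 42.1 CPM in resting and 106 in LPS ΔleftPAL cells and at 36.1 and 82.9 in ΔIRIS cells. The log2 ratios were 1.33 (interval 1.23 to 1.44) and 1.20 (1.09 to 1.31), with an edgeR adjusted p of 0.00183. On the kallisto TPM scale they were 0.44 and 0.25, short of 2-fold in both. Among the 45 genes ordered by CPM per exon length it had rank 29 in both resting libraries and ranks 5 and 7 on LPS. Traf5 was at 46.3 and 13.1 CPM and at 38.7 and 12.3, ratios of -1.82 and -1.66 (edgeR adjusted p 0.00132), and its counts were only 0.37 to 0.47 of the kallisto estimates. Traf2 and Traf3, which hold the NF-κB-inducing kinase in check, showed smaller falls of 0.43 and 0.41 and of 0.63 and 0.52 on the log2 scale (edgeR adjusted p 0.0313 and 0.0137).

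Traf6, the ubiquitin ligase that MyD88 signals converge on, was at 62.4 and 49.8 CPM in resting and LPS ΔleftPAL cells and at 105 and 48.6 in ΔIRIS cells. The LPS libraries were alike, and the resting ΔIRIS library stood above the others. Its fall on LPS was called with an edgeR adjusted p of 0.0438, and its ratios were -0.33 in ΔleftPAL and -1.11 in ΔIRIS cells.

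Of the 7 IκB kinase subunits and upstream kinases, 4 fell, 1 rose and 2 were not called, beside 31.4% and 31.3% of all genes called lower and higher. Ikbkb, the catalytic subunit of the canonical pathway, was at 174 and 78.9 CPM in resting and LPS ΔleftPAL cells and at 158 and 71.1 in ΔIRIS cells, 2.20-fold and 2.23-fold lower (edgeR adjusted p 0.00222). Chuk, the catalytic subunit that the alternative pathway uses, was at 84.7 and 88.2 CPM and at 96.8 and 100.2. Its ratios were 0.06 (interval -0.03 to 0.14) and 0.05 (-0.03 to 0.12), and it was not called (edgeR adjusted p 0.705). Ikbkg, the regulatory subunit NEMO, was at 58.3 and 35.3 CPM and at 54.7 and 33.8 (edgeR adjusted p 0.00670). Map3k14, the NF-κB-inducing kinase that starts the alternative pathway, was at 57.3 and 16.1 CPM and at 43.4 and 13.0, 3.56-fold and 3.33-fold lower on LPS (edgeR adjusted p 0.00118). Together with Nfkbid it had the smallest adjusted p of the 45 genes.

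Of TAK1 and its partners, Map3k7 rose, Tab2 fell and Tab1 was not called. Map3k7 was at 67.0 and 107 CPM in resting and LPS ΔleftPAL cells and at 68.5 and 97.3 in ΔIRIS cells (edgeR adjusted p 0.0141). Tab2, which tethers TAK1 to ubiquitin chains, was at 64.8 and 43.4 CPM and at 77.3 and 47.5 (edgeR adjusted p 0.00956). Tab1, which activates TAK1, was at 19.7 and 13.3 CPM in ΔleftPAL but at 12.2 and 15.2 in ΔIRIS cells. It was lower on LPS in ΔleftPAL, at -0.57 (interval -0.77 to -0.37), and higher in ΔIRIS cells, at 0.32 (0.11 to 0.52).

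Map3k7 also differed in its transcripts. The kallisto estimates gave most of the gene to a pair of coding transcripts of 5773 and 5669 bases, whose first or last exons also differ in length. Of the inner exons the pair differs only in exon 12 of 17, a cassette of 81 bases on chromosome 4 (chr4:31994874-31994954, plus strand, GRCm38), whose length leaves the reading frame intact. It is shown because the share of transcripts that hold it differed between resting and LPS cells, with the exon in capitals between the last 18 bases of the exon before it and the first 18 of the exon after it, from the GENCODE transcript.
Map3k7 exon 12: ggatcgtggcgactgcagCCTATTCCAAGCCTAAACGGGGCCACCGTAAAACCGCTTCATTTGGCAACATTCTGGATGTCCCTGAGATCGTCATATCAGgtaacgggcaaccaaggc
Transcripts with the exon made up 30.6% of the estimated counts that span it in resting ΔleftPAL cells and 84.0% on LPS. The shares were 49.0% and 79.7% in ΔIRIS cells. Both LPS libraries were above both resting libraries, which also differed from each other. In TPM, which weights the short transcripts without the exon more heavily, the shares were 22.1% and 57.6% in ΔleftPAL and 31.3% and 57.4% in ΔIRIS cells, in the same direction. These are estimates of a transcript model from 1 library a group, with no test.

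Among the NF-κB subunits, 4 of the 5 fell on LPS, beside 31.4% of all genes, and Nfkb1 rose, beside 31.3%. Nfkb1, which encodes p105 and p50, was at 191 and 258 CPM in resting and LPS ΔleftPAL cells and at 206 and 258 in ΔIRIS cells (edgeR adjusted p 0.0415). Rel, which encodes c-Rel, was at 83.3 and 30.3 CPM in ΔleftPAL and at 176 and 22.0 in ΔIRIS cells. It was 2.75-fold lower on LPS in ΔleftPAL and 8.02-fold lower in ΔIRIS cells (edgeR adjusted p 0.00991). Rela, which encodes p65, was at 54.9 and 34.0 CPM and at 50.7 and 35.3 (edgeR adjusted p 0.0124). The subunits of the alternative pathway moved alike, Nfkb2 being at 151 and 90.6 CPM and at 157 and 72.4 (edgeR adjusted p 0.00671) and Relb at 57.1 and 34.6 and at 69.0 and 30.7 (edgeR adjusted p 0.00743). Per exon length Nfkb1 was the highest of the 5 in both LPS libraries, and Rel was the highest in the resting ΔIRIS library, at 63.0 CPM per 1000 bases.

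Of the 6 genes for IκB proteins 1 was called higher, 2 lower and 3 not, beside 31.3% and 31.4% of all genes called higher and lower. Nfkbia, which encodes IκBα, the inhibitor that NF-κB itself induces, was at 135 and 237 CPM in resting and LPS ΔleftPAL cells and at 184 and 212 in ΔIRIS cells. Its ratios of 0.81 (interval 0.75 to 0.88) and 0.20 (0.15 to 0.26) had an edgeR adjusted p of 0.0694, and it was called higher when DESeq2 size factors, total counts, the kallisto estimates, a filter at 10 counts or none, or the DESeq2 test were used. It was the highest of the 45 genes per exon length in 3 of the 4 libraries. Nfkbiz, which encodes the nuclear protein IκBζ, was at 71.3 and 98.3 CPM and at 68.9 and 100.1 (edgeR adjusted p 0.0201). Nfkbid, another atypical IκB gene, was at 106 and 28.0 CPM in ΔleftPAL and at 142 and 29.2 in ΔIRIS cells, 3.79-fold and 4.87-fold lower on LPS (edgeR adjusted p 0.00118). Nfkbie was at 71.1 and 48.4 CPM and at 77.6 and 38.9 (edgeR adjusted p 0.0126). Bcl3 was at 17.0 and 19.0 CPM and at 16.4 and 23.9, and Nfkbib at 20.9 and 23.6 and at 22.6 and 20.8, and neither was called (edgeR adjusted p 0.122 and 0.860), though Bcl3 was called higher with the kallisto estimates and with no filter.

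Tnfaip3 encodes A20, the ubiquitin-editing enzyme that shuts down NF-κB signals. It was at 149 and 80.5 CPM in resting and LPS ΔleftPAL cells and at 433 and 79.7 in ΔIRIS cells. The LPS libraries were alike, and the resting ΔIRIS library was far above all others. Its fall on LPS was 1.85-fold in ΔleftPAL and 5.44-fold in ΔIRIS cells, with an edgeR adjusted p of 0.0232. Its partner Tnip2 was at 19.9 and 14.0 CPM and at 17.7 and 10.4 (edgeR adjusted p 0.0241), and Tnip1 at 49.6 and 48.7 and at 53.8 and 47.1 (edgeR adjusted p 0.462).

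**Figure D3:**
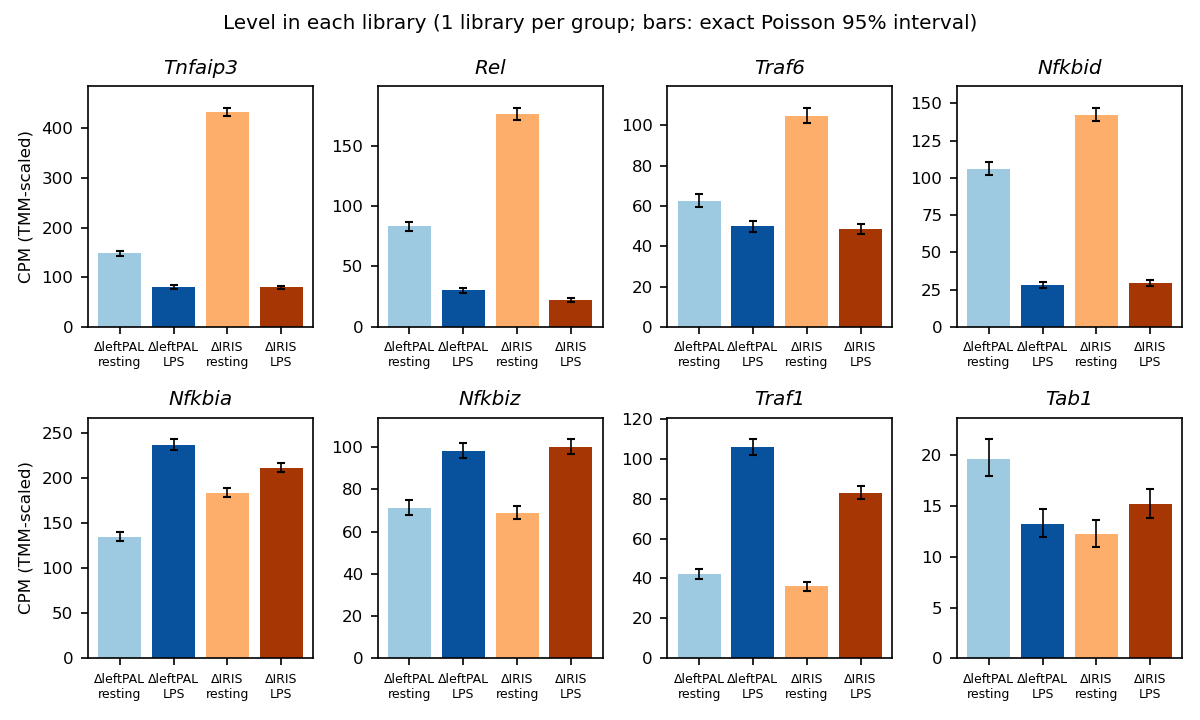
CPM of 8 genes in each library, 1 library a group, with bars for the exact Poisson 95% interval and each axis starting at 0. Tnfaip3, Rel and Traf6 stand out in the resting ΔIRIS library at 433, 176 and 105 CPM, Traf1 and Nfkbiz are higher in both LPS libraries, and Tab1 is highest in resting ΔleftPAL.

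The promoters of these genes were searched for κB motifs, the DNA sequence that NF-κB binds, since several members are both parts and targets of the pathway. RefSeq promoter sequences of 300 bases (GRCm38.p6, 250 before to 50 after the start site) matched 35 of the 45 genes by symbol, without Tlr4, Tlr7, Ly96, Cd14, Ticam2, Nfkb1, Relb, Nfkbiz, Ikbkb and Tab1. The κB consensus motif was found on either strand in 13 of the 35, or 37.1%, and in 9.55% of the 27025 genes of the table. The 13 were Tlr2, Tlr3, Irak1, Traf3, Nfkb2, Rel, Nfkbia, Nfkbie, Nfkbid, Bcl3, Map3k7, Tnfaip3 and Tnip1. The motif GGGNNTTTCC, which overlaps the consensus and was also read on both strands, was found in 8 of the 35, or 22.9%, and in 1.89% of all genes. A match is a run of letters, not a measured site. Promoters are shown for Tnfaip3, Rel and Nfkbia, whose resting levels were above those of ΔleftPAL in the ΔIRIS library, and for Map3k7, which rose on LPS. Each promoter shown holds a match. The promoter of Traf6, also higher in resting ΔIRIS cells, held no consensus match, nor did a further Tnfaip3 promoter (chr10:19011914-19012213). Capitals mark consensus matches, and each sequence reads 5′ to 3′ on the strand of the gene.
Tnfaip3 (chr10:19015361-19015660, minus strand): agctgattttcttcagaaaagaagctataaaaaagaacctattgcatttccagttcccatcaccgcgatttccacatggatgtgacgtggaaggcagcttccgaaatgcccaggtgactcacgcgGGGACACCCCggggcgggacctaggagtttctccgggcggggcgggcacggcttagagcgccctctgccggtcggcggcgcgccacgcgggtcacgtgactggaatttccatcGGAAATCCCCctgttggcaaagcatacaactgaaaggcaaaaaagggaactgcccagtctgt
Rel (chr11:23770920-23771219, minus strand): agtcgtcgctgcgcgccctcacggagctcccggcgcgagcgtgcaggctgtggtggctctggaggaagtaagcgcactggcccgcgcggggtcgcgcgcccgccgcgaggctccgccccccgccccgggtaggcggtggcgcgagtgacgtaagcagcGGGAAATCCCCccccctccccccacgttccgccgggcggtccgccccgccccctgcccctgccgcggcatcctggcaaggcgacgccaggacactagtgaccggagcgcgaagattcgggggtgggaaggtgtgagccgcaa
Nfkbia (chr12:55492598-55492897, minus strand): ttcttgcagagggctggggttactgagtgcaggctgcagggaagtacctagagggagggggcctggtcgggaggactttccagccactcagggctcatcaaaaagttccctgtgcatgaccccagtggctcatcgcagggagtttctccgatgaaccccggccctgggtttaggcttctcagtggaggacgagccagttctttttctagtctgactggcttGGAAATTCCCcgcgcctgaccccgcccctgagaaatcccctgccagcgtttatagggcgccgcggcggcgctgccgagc
Map3k7 (chr4:31963857-31964156, plus strand): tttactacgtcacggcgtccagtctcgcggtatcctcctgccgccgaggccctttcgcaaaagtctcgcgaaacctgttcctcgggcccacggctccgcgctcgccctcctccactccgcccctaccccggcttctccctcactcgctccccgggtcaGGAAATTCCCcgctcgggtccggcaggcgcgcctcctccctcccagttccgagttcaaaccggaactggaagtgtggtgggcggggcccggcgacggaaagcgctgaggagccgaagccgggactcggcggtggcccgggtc
Tnfaip3 and Rel hold the same match to the shorter motif, GGGGATTTCC on the opposite strand, at -12 and -91 from the start site. Nfkbia and Map3k7 share GGGAATTTCC on the opposite strand at -29 and -92. Members with and without the consensus overlapped in their change on LPS, with medians of -0.63 and -0.91 in ΔleftPAL and ΔIRIS over the 13, and of -0.53 and -0.63 over the other 22. At rest, ΔIRIS minus ΔleftPAL, the median was 0.05 over the 13 and -0.14 over the 22, with ranges of -0.84 to 1.54 and -0.56 to 0.74.

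Between the genotypes no member was called. The edgeR test called 0 of the 45, beside 0.00886% of all genes tested, which is the single gene Gm11942, no member and named after its values were seen. At an unadjusted p under 0.05 the fit held 666 genes, 5.9% of all genes tested, and 2 of the 45. These were Tlr3 and Map3k14, whose edgeR adjusted p was 0.729. DESeq2 called 34 genes and limma-voom 0, none of them a member. The fit takes its error from the departure of one LPS response from the other, so a gene that differs at rest alone carries that difference in its error.

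By size, 6 members were at least 1.5-fold apart between the genotypes at rest and none on LPS. Tnfaip3, Rel and Traf6 were at least 1.5-fold higher in resting ΔIRIS cells, 3 of the 45 beside 6.86% of all genes, and Tlr3, Tlr7 and Tab1 at least 1.5-fold lower, 3 beside 4.24%. On LPS none of the 45 was 1.5-fold higher, beside 1.75%, and none 1.5-fold lower, beside 4.78%. None was 1.5-fold apart in the same direction in both conditions, beside 1.14%. The counts at rest were near the background. Traf6 did not reach 1.5-fold in kallisto TPM, at 0.53 on the log2 scale, and with a pseudocount of 5 CPM Tlr3 and Tab1 did not, at -0.57 and -0.52. Tnfaip3 was 2.92-fold higher in resting ΔIRIS cells (log2 ratio 1.54, interval 1.49 to 1.60) and level on LPS (-0.01, interval -0.10 to 0.07). Rel was 2.12-fold higher at rest (1.08, interval 1.01 to 1.16) and lower on LPS (-0.46, interval -0.61 to -0.31). Traf6 was 1.68-fold higher at rest (0.75, interval 0.66 to 0.84) and level on LPS (-0.03, interval -0.14 to 0.07). Nfkbia and Nfkbid were next, at 0.45 and 0.42 at rest. In the other direction Tlr7 was 1.79-fold lower in resting ΔIRIS cells, Tlr3 1.86-fold and Tab1 1.61-fold. Of the 11 receptors and co-receptors 10 were below 0 at rest, with a median of -0.26, beside 5584 of the 11286 genes tested, and 7 were above 0 on LPS, beside 5550. Of these 7, Tlr4, Tlr7 and Cd180 were below 0 on LPS in kallisto TPM, at -0.19, -0.21 and -0.16.

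**Figure D4:**
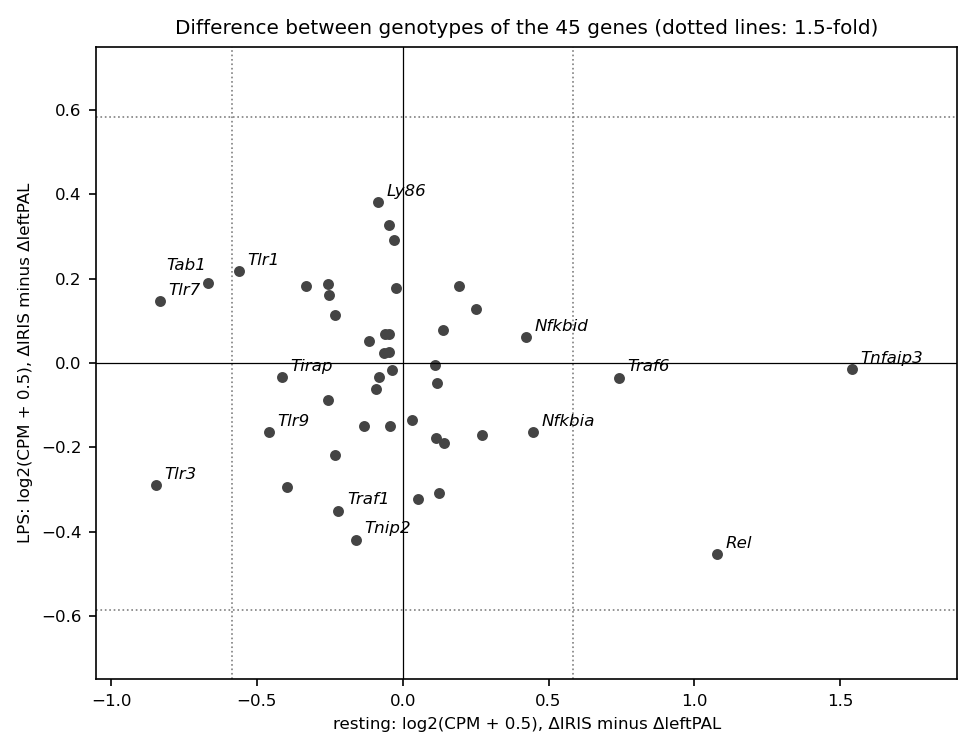
Difference in log2(CPM + 0.5), ΔIRIS minus ΔleftPAL, at rest (horizontal) and on LPS (vertical) for the 45 genes, with dotted lines at 1.5-fold and the farthest genes named. Tnfaip3, Rel and Traf6 lie past the right line and Tlr3, Tlr7 and Tab1 past the left one, while no gene lies past either line on LPS.

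Other genes were also higher in the resting ΔIRIS library. Of 19 immediate early and heat shock genes, 18 were higher in resting ΔIRIS cells, beside 5701 of the 11286 genes tested. At least 1.5-fold higher were 10, beside 6.86%, and the median was 0.67. None of the 19 was called between the genotypes. The list was drawn up after these values were seen, so its counts are no independent check. Hspa1a, Hspa1b and Nr4a2, all among the 10, passed the filter only through resting ΔIRIS, at 270, 225 and 463 counts, which fixed their direction. The summed CPM of the 19 was 2325 in resting ΔleftPAL and 3519 in resting ΔIRIS cells, against 380 and 322 on LPS. Such genes are known to respond within minutes to stimuli and stress. On LPS 18 of the 19 were called lower, beside 31.4% of all genes tested, and 5 of the 18 passed the filter only through their resting libraries. Between the genotypes 5 of the 19 were above 0 on LPS, with a median of -0.31. Their part in the difference between the resting libraries was not tested. Of 22 textbook NF-κB targets outside the members that were tested, 14 were higher in resting ΔIRIS cells and 9 at least 1.5-fold, beside the 6.86% over all genes, with a median of 0.25, while 3 were at least 1.5-fold lower, beside 4.24%. Junb is in both lists and in both counts at 1.5-fold. On LPS the list lay the other way, with 3 above 0 and 19 below in ΔIRIS cells and a median of -0.27. At rest Cd83 was at 156 and 347 CPM in ΔleftPAL and ΔIRIS cells and Irf4 at 299 and 634, and on LPS Ccl22 was at 146 and 8.33. These 3 were named after their values were seen, and no gene of the list was called between the genotypes. By the sums given above, the myeloid markers were also higher in the resting ΔIRIS library and the erythroid markers lower. Of the 15 myeloid markers tested 13 were above 0 at rest and 2 below, Itgam and Csf3r. S100a8 and S100a9, too low to be tested, were also lower in resting ΔIRIS cells. They were at 3.69 and 5.49 CPM in resting ΔleftPAL and 0.723 and 0.867 in resting ΔIRIS cells. The part of all these markers was not tested.

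Transcripts annotated as retaining an intron could be read for 21 of the 45 genes with at least 100 estimated counts in every library. Their share of a gene's estimated counts was at least 5 points lower on LPS in both genotypes for 8 of the 21, beside 31.8% of 3981 such genes, and higher for 1, beside 1.56%. The 8 were Myd88, Ticam2, Irak3, Nfkb1, Relb, Chuk, Ikbkb and Tnip2, and the 1 was Irak2. A lower share was thus common among all genes. Ticam2 had the widest gap, its retained-intron transcript holding 40.8% and 11.1% in resting and LPS ΔleftPAL cells and 46.7% and 11.3% in ΔIRIS cells. For Ikbkb the shares were 38.5% and 23.2%, and 34.3% and 21.5%. For Relb they were 27.3% and 16.6%, and 31.3% and 12.5%. For Chuk, whose total was not called, they were 27.3% and 12%, and 23.5% and 13.3%. Irak2 went the other way, with 5.87% and 11.8% in ΔleftPAL and 7.46% and 15.6% in ΔIRIS cells.

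**Figure D5:**
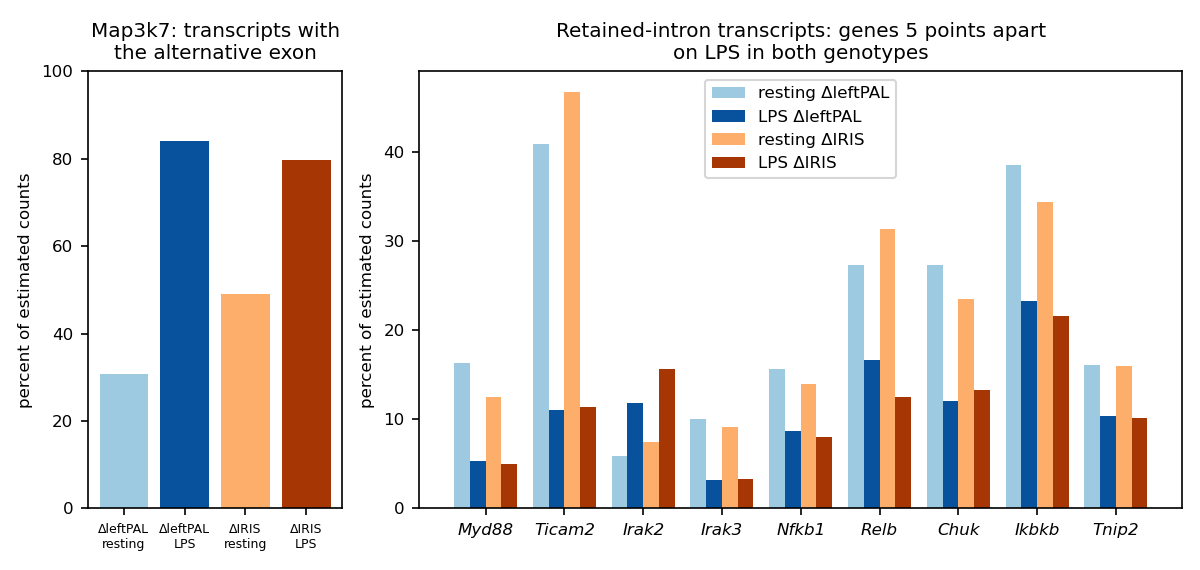
Percent of kallisto estimated counts in each library, as Map3k7 transcripts with the cassette exon of those that span it (left) and as retained-intron transcripts for the 9 members at least 5 points apart on LPS in both genotypes (right). The Map3k7 share is 84.0% and 79.7% on LPS against 30.6% and 49.0% at rest, and only Irak2 is higher on LPS among the 9.

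The main transcript's share of its gene was at least 10 points higher on LPS in both genotypes for 6 of 31 members with several transcripts, beside 18.5% of such genes. These were Ticam2, Traf2, Bcl3, Ikbkb, Map3k7 and Tnip2. It was at least 10 points lower for Traf1 alone, beside 3.82%. The main Traf1 transcript held 46.2% and 14.3% in resting and LPS ΔleftPAL cells and 41.3% and 13.5% in ΔIRIS cells, while the counts of the gene as a whole rose. In TPM the shares were 21.5% and 11.5%, and 18.3% and 10.7%, so that the limit of 10 points was not reached in ΔIRIS cells.

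Other genes of the pathway outside the 45 were counted in the same way, beside the 31.4% called lower and 31.3% called higher on LPS over all genes tested. Of 10 other TLR genes and genes of TLR handling that were tested, 8 were called lower and 1 higher. Of the 8, 4 passed the filter only through their resting libraries, which fixed their direction, namely Tlr13, Tlr8, Tlr11 and Tlr12, which sense microbial RNA or protein. Tlr13 went from 11.8 and 12.5 CPM at rest to 0.072 and 0.129 on LPS, near the floor. Of 29 other signalling genes, 15 were called lower and 2 higher. Among these Irf7 was at 121 and 22.1 CPM in resting and LPS ΔleftPAL cells and at 42.1 and 11.7 in ΔIRIS cells, and Map3k1, Tifa and Zc3h12a also fell at least 2-fold in both. Of the 22 textbook NF-κB targets, 5 were called lower, 3 higher and 14 not, both shares being below those over all genes. Il10, which passed the filter only through its LPS libraries, rose from 0.987 and 2.31 CPM at rest to 21.3 and 19.8 on LPS, whereas Junb fell from 539 and 857 to 71.1 and 58.5 and the cytokine genes Ltb and Lta fell with it.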

How the data were processed

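RNA of CD43-depleted splenocytes was compared in 4 libraries, 1 each of resting and LPS-activated ΔleftPAL and ΔIRIS cells. The authors mapped reads of 150 nt with STAR 2.4.0a to mm10 with Ensembl release 77 and deposited gene counts from featureCounts (Subread 1.4.6-p1), not normalized, with multi-mapping reads counted. They also deposited kallisto 0.42.3 estimated counts and TPM per transcript, the tool versions being those of the submitters' processing notes or the methods. The row without a gene name (0.00876% to 0.0264% of counts) was left out. Gene counts were within 0.9 to 1.1 times the estimated counts in every library for 39 of the 45 genes, all but Tlr3, Tlr6, Ticam2, Tirap, Irak4 and Traf5.

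The main test was the edgeR 4.0.16 quasi-likelihood test with TMM scaling on genotype and condition, with 1 residual degree of freedom, a prior of 3.41 and Benjamini-Hochberg adjustment over the 11286 genes that averaged 50 counts or more. Fold rules used log2(CPM + 0.5), which understates the change of low genes. Per-library ratios carry exact intervals and no p. Estimated counts were rounded for fits. Transcript types came from GENCODE M21, which matched 97.5% of the transcripts. Promoters came from RefSeq (GRCm38.p6). The 45 genes and all other lists (B, myeloid, T, NK, erythroid and plasma cell markers, other TLR, signalling and target genes) were chosen with earlier results of these data known. From the other lists, called genes at least 2-fold apart in both genotypes were named, up to 4 a list. The fit was tested on simulated data. Other settings tried were library totals in place of TMM, size factors from DESeq2 1.42.0, TMM without immunoglobulin genes, the kallisto tables, other filters, a pseudocount of 5 CPM, other folds, DESeq2, limma-voom 3.58.1 and models without the genotype or the condition term.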

Additional observations from a re-analysis of the deposited data

Results flagged for a closer look

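Tab1, the activator of TAK1, went opposite ways on LPS in the 2 genotypes, with log2 ratios of LPS over resting of -0.57 in ΔleftPAL and 0.32 in ΔIRIS cells. Each interval of counting error left out 0, and the signs held under each scaling and table tried. With 1 library a group the difference between the genotypes was not tested.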

How the results depend on the processing

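No replicate could be left out, since each group has 1 library, and the absence of replicate libraries, of an LPS-free culture and of wt libraries limits every comparison. The labels give no replicate numbers, so none could pair libraries. The genotype term of the fit compares LPS and resting cells within a genotype, and without it 35 members were called, 7 higher and 28 lower. Members called on LPS numbered 30 to 36 over the alternatives to the fit, with 5 to 10 higher and 24 to 28 lower beside 35, 7 and 28. No member was called in opposite directions, and no member was called between genotypes in any fit. Of the members at least 2-fold apart on LPS, 12 became 20 at 1.5-fold and 2 at 4-fold, and the 10 lower became 17 and 2. The 2 higher became 0 at 4-fold and 0 in TPM, and 1 with a pseudocount of 5 CPM and 1 with a minimum mean of 200 counts. In TPM the median LPS ratio of all genes was -0.27 and -0.26 on the log2 scale, beside 0.00 and -0.03, and the members at least 1.5-fold lower in resting ΔIRIS cells numbered 5 instead of 3. In TPM no member's main transcript was 10 points lower on LPS (0 instead of 1, Traf1). In TPM the retained-intron share was lower for 10 members instead of 8, beside 42% of such genes, and higher for 3 instead of 1. With a limit of 10 points the members with a lower retained-intron share numbered 4 instead of 8 (alternatives added after seeing the data, as were those on resting ΔIRIS cells). The causes were not tested. No called ratio changed sign. The uncalled ratios of Bcl3 and Chuk were below 0 in both genotypes in TPM.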
